A study of Mus musculus with 2 samples.

Results

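The 9 chemokine receptor genes studied here were followed in leukocytes from pressure-overloaded mouse hearts: Ccr2, Cx3cr1, Ccr1, Ccr7, Cxcr2, Cxcr3, Cxcr4, Cxcr5 and Cxcr6. They are the 9 rows with those symbols among 27809 genes of a single-cell RNA sequencing (scRNAseq) table. They were picked by symbol, with earlier results of these data known. The cells were CD45+ cells from hearts of male mice, labelled C57BL/6N as a pool and of C57BL/6 background and 8 weeks old by the study's methods, taken 1 week after sham surgery or transverse aortic constriction (TAC), which narrows the aorta and loads the left ventricle. The 5 groups were marked with antibody hashtags and sequenced as 1 pooled cDNA library. They were WT sham, CD3e-/- sham, WT TAC, CD3e-/- TAC and WT TAC with repeated injections of an antibody against CD8, here called CD8-depleted TAC. The CD3e-/- mice lack a CD3 chain in every cell, and T cells with it. How many hearts went into a hashtag is not given in the sources used here, so each group is 1 sample, no test between groups was possible, and every group value below stands without a replicate. In all lists of 5 values the order is WT sham, CD3e-/- sham, WT TAC, CD3e-/- TAC and CD8-depleted TAC.

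Chemokine receptors are membrane proteins coupled to G proteins that steer leukocytes along gradients of chemokines. CCR2 binds CCL2 and related ligands and brings monocytes out of the bone marrow and into inflamed tissue. CX3CR1 binds fractalkine (CX3CL1) and is carried by patrolling monocytes and by many resident macrophages. In the mouse heart, macrophages without CCR2 are long-lived residents and those with CCR2 are largely replaced from blood monocytes. CCR7 and CXCR5 guide dendritic cells and lymphocytes within lymphoid tissue, CXCR3 and CXCR6 belong to activated T cells and related lymphocytes, CXCR2 to neutrophils, and CXCR4 retains cells where CXCL12 is made.

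The values were read counts, not counts of molecules, and a level is given as reads per 1000000 reads (CPM) over all cells of a class in a group. After filtering, 5263 cells remained (1000, 835, 1615, 919 and 894), with 91899777 to 208758777 reads a group and a median of 75442 to 117788 reads a cell. The authors had given each cell barcode to its most counted hashtag, so none stood under more than 1. The deleted gene, Cd3e, was at 17.8, 3.73, 10.8, 5.64 and 13.6 CPM, lowest in the CD3e-/- groups but with reads left in 42 and 83 of their cells. Cd3g, of the same receptor complex, was at 45.6, 0.555, 17.5, 0.0661 and 22.5 CPM. Cd8a was at 7.40 CPM in WT TAC and 6.55 CPM in CD8-depleted TAC, and Cd8b1 at 10.7 and 7.74 CPM, so the reads show no loss of these genes and that group is given by its label only.

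Cells were put into classes by single-cell CPM of 9 gating genes, and each class is called by its gene. Cells with Csf1r and Lyz2, genes of monocytes and macrophages, that fell in no other class numbered 3393. They were split by Lyve1, Ly6c2 and Ace into a Lyve1 class (75, 31, 51, 15 and 30 cells), a Ly6c2 class (19, 25, 134, 141 and 126), an Ace class (24, 35, 74, 75 and 45) and cells with none of these genes (440, 364, 841, 432 and 416). The other classes were Cd209a and Xcr1, genes of dendritic cells, Cd79a of B cells and Cd3g of T cells. Cells of these other classes are not counted below among the cells with Csf1r and Lyz2, even where they carried both genes. A remainder of 688 cells met no gate and is called ungated. Of 7 marker genes listed for each class, at least 2 times the level of every other class was reached by 7 in the Lyve1, Xcr1, Cd79a and Cd3g classes, by 6 in the Ace class, and by 1 in the Ly6c2 and Cd209a classes. The Ly6c2 and Cd209a classes are therefore called only by their gates. Of the 3393 cells, 253 (7.46%) lay within 2 times of the Ly6c2 threshold, against 445 cells in the whole Ly6c2 class.

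Ccr2 and Cx3cr1 are the pair by which single cells are parted below, so a promoter window of each gene is shown here. Both lie on chromosome 9 of GRCm38.p6, Ccr2 at chr9:124101918-124109140 on a stretch that also carries Cxcr6 and Ccr1, and Cx3cr1 at chr9:120048683-120068296. The windows run from 250 bases before to 50 bases after 1 start position that RefSeq gives for each gene, chr9:124101933-124102232 on the plus strand for Ccr2 and chr9:120068247-120068546 on the minus strand for Cx3cr1. The Ccr2 window lies inside the span given above, whose first base comes before it. Capitals mark GGAA on the printed strand and TTCC, the same letters on the other strand, which form the core bound by ETS factors such as PU.1, a factor of myeloid cells.
Ccr2: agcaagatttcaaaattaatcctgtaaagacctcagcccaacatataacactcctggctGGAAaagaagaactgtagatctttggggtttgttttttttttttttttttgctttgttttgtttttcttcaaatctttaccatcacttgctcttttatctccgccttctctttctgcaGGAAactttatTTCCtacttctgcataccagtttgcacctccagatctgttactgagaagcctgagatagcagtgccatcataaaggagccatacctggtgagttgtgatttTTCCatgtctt
Cx3cr1: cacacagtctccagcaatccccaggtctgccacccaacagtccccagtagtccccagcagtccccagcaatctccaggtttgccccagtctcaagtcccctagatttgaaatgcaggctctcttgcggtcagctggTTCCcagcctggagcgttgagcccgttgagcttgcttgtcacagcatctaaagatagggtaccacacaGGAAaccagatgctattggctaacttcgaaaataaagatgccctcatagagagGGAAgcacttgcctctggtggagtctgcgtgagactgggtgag
The Ccr2 window held 4 such matches and the Cx3cr1 window 3. Among 32851 promoter windows of the same length 96.0% held at least 1, and 46.3% held as many as Ccr2 or more, so these counts are ordinary and are given as a description.

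Ccr2 was highest in the Ly6c2 class in each of the 5 groups, at 2563, 2685, 2974, 3040 and 2978 CPM. After each cell was thinned to 30000 reads, 94.7, 100, 97.7, 96.4 and 95.2% of the Ly6c2 class had 3 or more Ccr2 reads, called positive from here on. The Cd209a class, second in both sham groups and lower in order after TAC, had 1646, 1619, 1765, 1399 and 1543 CPM, and its cells were nearly all positive as well (367 of 387). In the Ace class Ccr2 was at 935, 1270, 1646, 1415 and 2039 CPM, lowest in WT sham and highest in CD8-depleted TAC. Cells with none of the subset genes had 1199, 1379, 1789, 1494 and 1557 CPM, levels that overlapped those of the Ace and Cd209a classes. The Xcr1 class stayed lower, at 800, 981, 1093, 987 and 1001 CPM, although 143 of its 154 cells were positive.

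The Lyve1 class was at the other end. Its Ccr2 level was 414, 787, 280, 92.8 and 43.7 CPM, and these came from 13, 10, 5, 1 and 1 positive cells. In CD3e-/- TAC and CD8-depleted TAC, 96.3% and 73.0% of the Ccr2 reads of the class came from 1 cell each, so those levels are values of single cells. Among lymphocytes, the Cd3g class had 737, 755 and 552 CPM in WT sham, WT TAC and CD8-depleted TAC. Of its 117 cells 80 were positive, a count that includes 2 of the 3 cells gated in CD3e-/- sham. The B cells of the Cd79a class, which serve as the background here, had 73.1 to 299.3 CPM, and 30 of 394 (7.61%) were positive at the same thinned depth (median before thinning 47232.5 reads, against 91640.5 in the Lyve1 class and 122841 in the Ly6c2 class).

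Cx3cr1 ran the other way among the cells with Csf1r and Lyz2. It was at 880, 965, 882, 604 and 1034 CPM in the Lyve1 class and at 969, 767, 862, 757 and 1057 CPM in cells without a subset gene. The order of these neighbours was not settled, since either could be higher depending on the group and on the gating thresholds. The Ace class held 764, 616, 582, 567 and 624 CPM, below the cells without a subset gene in each group. The Ly6c2 class had 388, 354, 507, 424 and 312 CPM, the lowest of the 4 classes in each group. The Cd209a class had 46.3 to 186 CPM and the Xcr1 class 2.28 to 159 CPM, against 6.09 to 48.9 CPM in B cells.

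**Figure D1:**
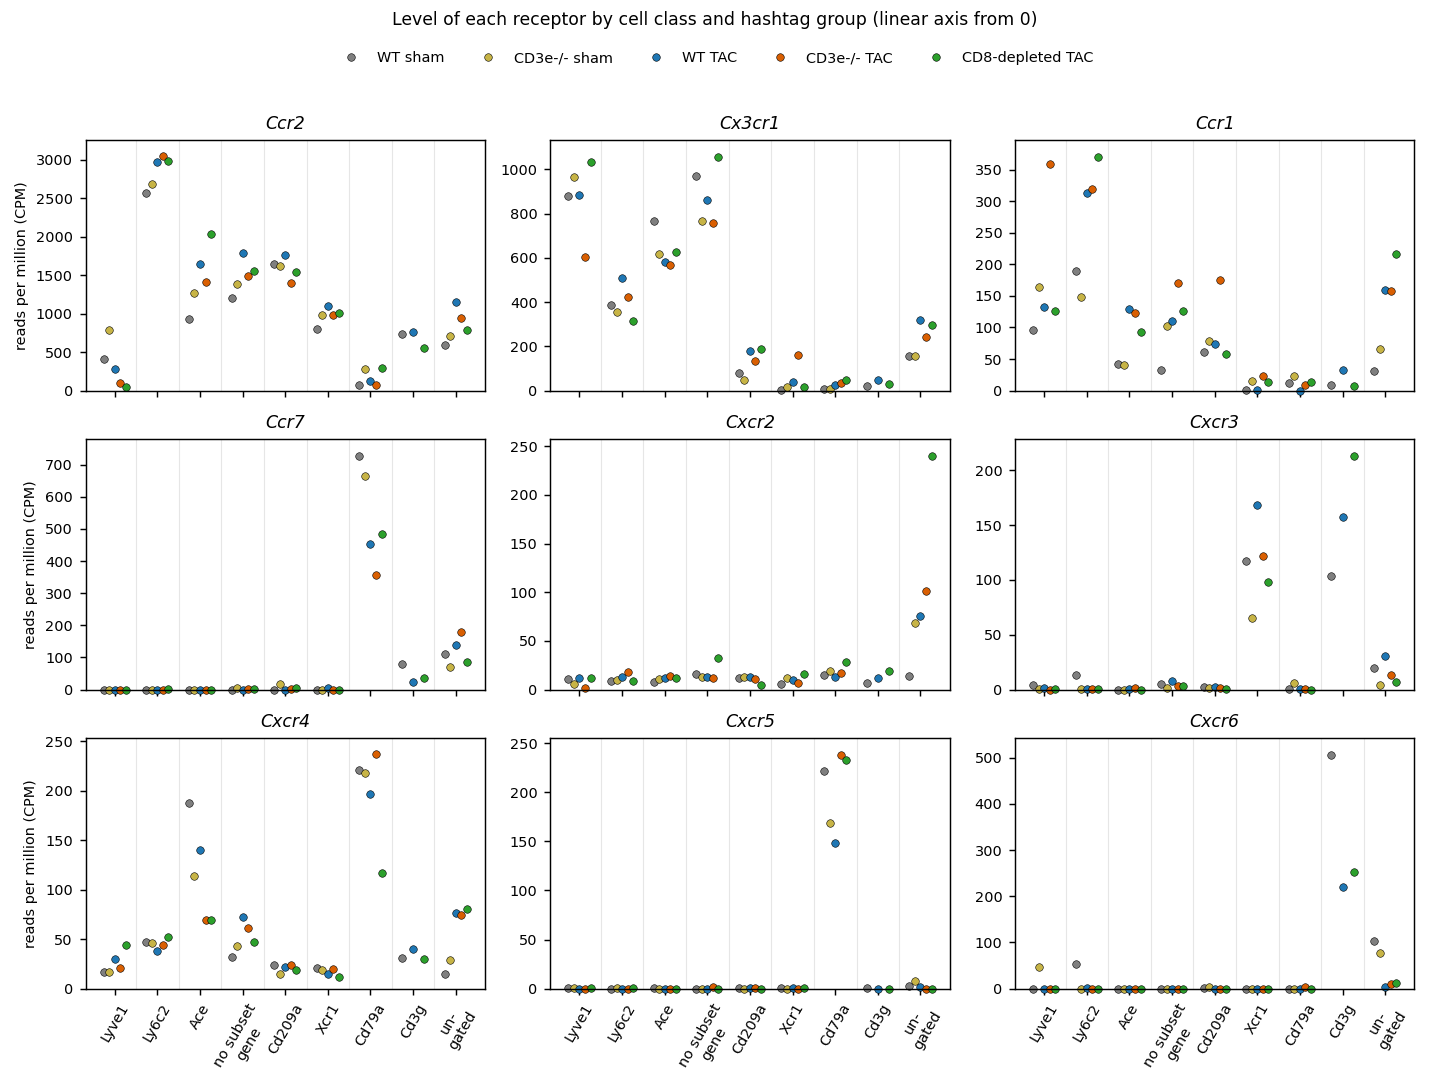
Level of each of the 9 receptors (CPM, linear axis from 0, a separate axis for each gene) in the 8 cell classes and the ungated cells, with 1 point for each hashtag group; the 3 Cd3g-positive cells of CD3e-/- sham are not drawn. Ccr2 was highest in the Ly6c2 class (2563 to 3040 CPM), Ccr7 and Cxcr5 in the Cd79a class, and Cxcr6 in the Cd3g class.

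Tests between classes used the 5 hashtag groups as blocks, with the reads of each class in each group summed, in edgeR's quasi-likelihood test over all genes. Between the Ly6c2 and Lyve1 classes 11570 genes were tested, of which 4.89% were higher and 5.32% lower in the Ly6c2 class at an adjusted p of 0.05. Of the 9 receptors 5 passed the filter on low counts, and 1 was higher and 1 lower. Ccr2 was higher in the Ly6c2 class in 5 of 5 groups, by 3.72 on the log2 scale (SE 0.66, edgeR adjusted p = 0.0132, alternatives 4.96e-11 to 0.058), a call that was lost with all gating thresholds doubled. Cx3cr1 was lower there in each group, with a log2 ratio of -1.16 (SE 0.20, edgeR adjusted p = 0.0115, alternatives 7.59e-06 to 0.0536), and without CD8-depleted TAC the ratio was -0.96 with an edgeR adjusted p of 0.0536. Ccr1 (log2 ratio 0.67), Cxcr4 (0.88) and Cxcr2 (0.52) did not pass, with edgeR adjusted p of 0.232, 0.141 and 0.693.

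Between the Ace and Ly6c2 classes 0.869% of 12541 genes were higher and 0.279% lower in the Ace class. None of the 5 receptors tested was higher and 2 were lower. Ccr2 was lower in the Ace class in each of 5 groups, with a log2 ratio of -1.02 (SE 0.13, edgeR adjusted p = 0.0166, alternatives 7.07e-08 to 0.0826). This call was lost without CD3e-/- sham (-1, edgeR adjusted p = 0.0601), without CD3e-/- TAC (-0.99, 0.0805) and without WT TAC (-1.07, 0.0826). Ccr1 was lower in each group too, with a log2 ratio of -1.74 (SE 0.17, edgeR adjusted p = 0.00685, alternatives 8.23e-17 to 0.0796), and with the gating thresholds halved it was -1.25 with an edgeR adjusted p of 0.0796. Cx3cr1 was higher in the Ace class in 5 of 5 groups (567 to 764 against 312 to 507 CPM) but missed the threshold (log2 ratio 0.67, SE 0.14, edgeR adjusted p = 0.0977, alternatives 0.00402 to 0.31). Cxcr4 was also higher in the Ace class in 5 of 5 groups and missed the threshold (log2 ratio 1.23, SE 0.28, edgeR adjusted p = 0.124, alternatives 0.0012 to 0.391).

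Within single cells, the reads of Ccr2 were mostly either 0 or well above the threshold. Of 3278 cells with Csf1r and Lyz2 that had 30000 reads or more, 36.1% had no Ccr2 read, 0.641% had 1 or 2, 3.23% had 3 to 9, 9.43% had 10 to 29, 33.0% had 30 to 99 and 17.6% had 100 or more. Cx3cr1 was spread more evenly, with 19.7% of cells at 0 reads, 2.26% at 1 or 2 and 11.4% at 3 to 9. A further 28.9% had 10 to 29, 34.5% had 30 to 99 and 3.20% had 100 or more. The positive threshold of 3 reads therefore fell in a sparse range for Ccr2, and few cells lay just under it for Cx3cr1 as well. Whether this gap came from the cells or from a correction of low counts before deposit was not tested. The correlation of the 2 receptors over cells was weak, with Spearman's rho of -0.19, -0.33, -0.09, -0.04 and -0.21 over all these cells, which share depth and the pooled library. Within the Ly6c2 class alone it was positive, at 0.05, 0.48, 0.34, 0.30 and 0.32.

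**Figure D2:**
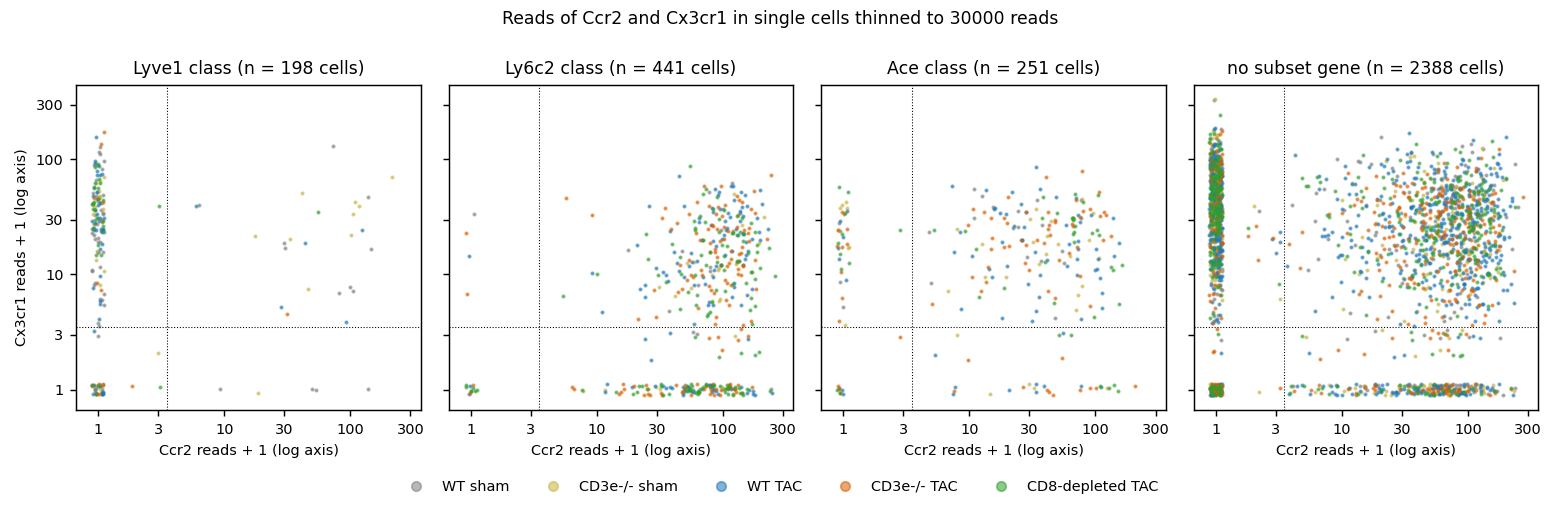
Reads of Ccr2 (horizontal) and Cx3cr1 (vertical) plus 1, on log axes, in each cell of the 4 classes with Csf1r and Lyz2 after thinning to 30000 reads, coloured by hashtag group, with a small random offset to part equal values and dotted lines at the positive threshold. Most cells of the Lyve1 class have fewer than 3 Ccr2 reads with 3 or more of Cx3cr1 (129 of 198), those of the Ly6c2 class 3 or more Ccr2 reads (426 of 441), and cells without a subset gene lie in both places.

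The shares by class are over the cells of all 5 groups, of which WT TAC has the most. Of the Lyve1 class, 65.2% had Cx3cr1 without Ccr2, 12.6% had both, 2.53% had Ccr2 only and 19.7% had neither, with Cx3cr1 only at 51.6 to 82.8%, both at 3.45 to 29.0% and neither at 13.8 to 40% by group. Of the Ly6c2 class 0.907% had Cx3cr1 only, 61.5% had both (56.5 to 68% by group) and 35.1% had Ccr2 only (32 to 38.7%). The Ace class was mostly positive for both (68.9%), with 14.7% positive for Cx3cr1 only and 12.7% for Ccr2 only. Cells without a subset gene were a mixture, at 34.7% Cx3cr1 only, 45.6% both, 13.5% Ccr2 only and 6.16% neither. The Cd209a and Xcr1 classes were Ccr2 only in 68.5% and 88.3% of cells, and 92.1% of the Cd79a class had neither.

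Across the groups the share of cells with Csf1r and Lyz2 that carried both receptors was 30, 37.2, 54.7, 56.0 and 48.7%. The share with Cx3cr1 only was 49.2, 39.8, 24.9, 18.3 and 30%. Both shares separated the 3 TAC groups from the 2 sham groups, and their exact 95% binomial intervals, which cover counting error only, did not overlap between WT sham (26.1 to 34.1% with both) and WT TAC (51.7 to 57.7%). Ccr2 only took 12.5, 18.4, 15.1, 18.0 and 15.3%, and neither took 8.30, 4.60, 5.25, 7.74 and 6.00%, with no such order. These shares are of 530, 435, 1067, 646 and 600 cells with 30000 reads or more, out of 558, 455, 1100, 663 and 617. The Cd209a class, left out of them, made up 9.0, 10.7, 7.74, 4.24 and 5.70% of all kept cells. The difference in the share with both between WT TAC and WT sham was 24.7 percentage points, and 22.4 without thinning.

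The makeup of the cells moved along with this. The Ly6c2 class made up 3.41, 5.49, 12.2, 21.3 and 20.4% of the cells with Csf1r and Lyz2, and the Lyve1 class 13.4, 6.81, 4.64, 2.26 and 4.86%. Within the cells without a subset gene alone, the share with both receptors was still 29.1, 33.1, 53.9, 54.1 and 48.0%, and that with Cx3cr1 only 50.4, 43.3, 27.8, 23.6 and 36.6%. Whether more cells carried Ccr2 or more cells that carry it entered the heart cannot be told apart in these counts.

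**Figure D3:**
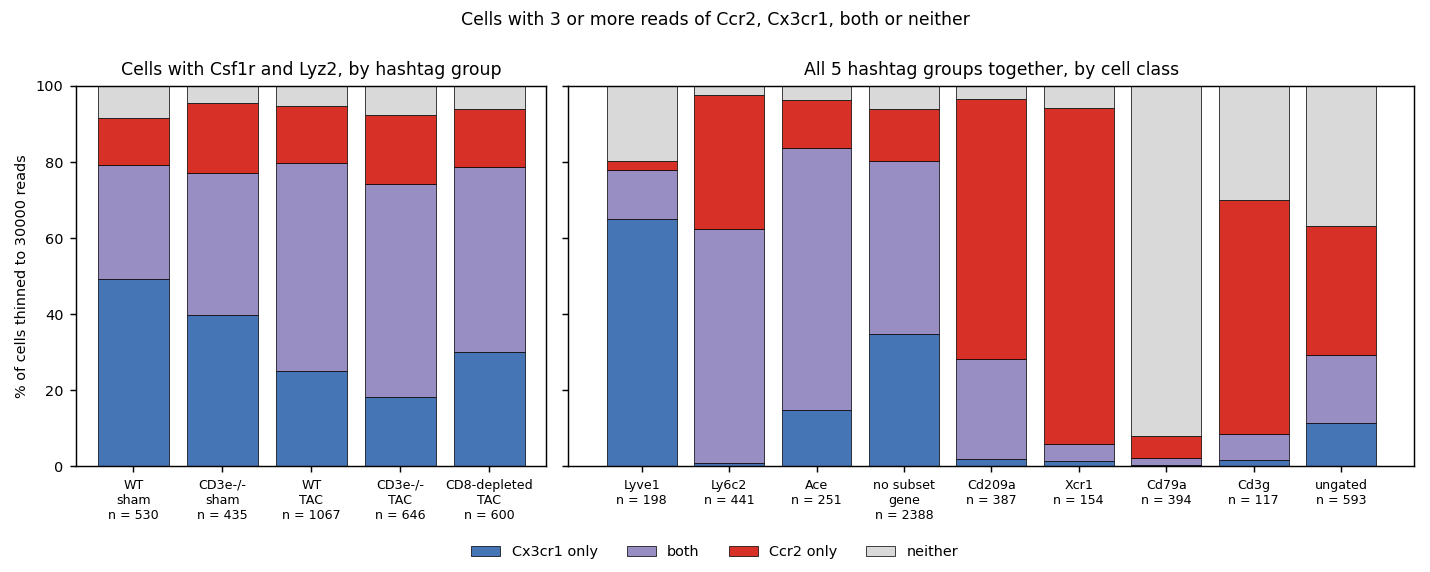
Percent of cells, thinned to 30000 reads, with 3 or more reads of Cx3cr1 only (blue), both genes (purple), Ccr2 only (red) or neither (grey), by hashtag group for cells with Csf1r and Lyz2 (left) and by class over all 5 groups (right), with n cells under each bar. Cells with both genes made up 30% in WT sham and 54.7% in WT TAC, and 61.5% of the Ly6c2 class against 12.6% of the Lyve1 class.

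Genes that took no part in defining the 4 combinations differed along with them, and their levels were compared in the summed reads of each combination in each group. Mrc1 (the mannose receptor) was at 1400 to 2178 CPM in cells with Cx3cr1 only, 435 to 736 CPM in cells with both and 220 to 565 CPM in cells with Ccr2 only. Folr2 (folate receptor beta) was at 119 to 321, 21.8 to 55.8 and 5.82 to 40.7 CPM, and Cbr2, a further resident macrophage gene, at 284 to 682, 60.8 to 210 and 15.3 to 36.3 CPM. For these 3 genes the values with Cx3cr1 only lay above those of both combinations with Ccr2 in each of the 5 groups. Cells with neither receptor held them as well, at 475 to 1680 CPM for Mrc1, 241 to 543 CPM for Folr2 and 337 to 1103 CPM for Cbr2, overlapping the values with Cx3cr1 only. For Mrc1 they also overlapped the values of both combinations with Ccr2. Gas6, a ligand of the clearance receptors Axl and Mertk, was at 233 to 336 CPM with Cx3cr1 only, 171 to 398 CPM with neither and at most 62.4 CPM in both combinations with Ccr2. Csf1r itself was at 1980 to 2533, 1202 to 1537 and 752 to 936 CPM, though it was used to gate these cells.

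Plac8, Fn1 and Vcan, listed as monocyte genes, were lower with Cx3cr1 only than in both combinations with Ccr2. Plac8 was at 41.4 to 244 CPM in cells with Cx3cr1 only, 917 to 1671 CPM in those with both, 259 to 2995 CPM in those with Ccr2 only and 0 to 400.3 CPM in those with neither. Fn1 (fibronectin) was at 38.6 to 465, 814 to 1590, 1206 to 2656 and 165 to 7276 CPM in the same order, and Vcan (versican) at 0 to 3.23, 58.9 to 88.6, 49.0 to 256 and 0 to 86.4 CPM. The highest Fn1 value was in cells with neither receptor, of which there were 20 to 56 a group. Cells with Ccr2 only differed between sham and TAC in these genes. Their Plac8 was at 259 and 352 CPM in WT sham and CD3e-/- sham and at 1785, 2574 and 2995 CPM after TAC, while H2-Ab1, an MHC class II gene, was at 7186 and 7811 CPM after sham and 4225, 4188 and 2646 CPM after TAC. Cells positive for both receptors held less Cx3cr1 than those with Cx3cr1 only (757 to 1075 against 1325 to 1553 CPM), whereas Ccr2 overlapped between both and Ccr2 only (2056 to 2677 and 1793 to 2317 CPM). Depth differed too: the median was 67669 to 104294 reads a cell with Cx3cr1 only, 96107 to 136220 with both and 110756 to 129627 with Ccr2 only, and its part in these levels was not tested.

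**Figure D4:**
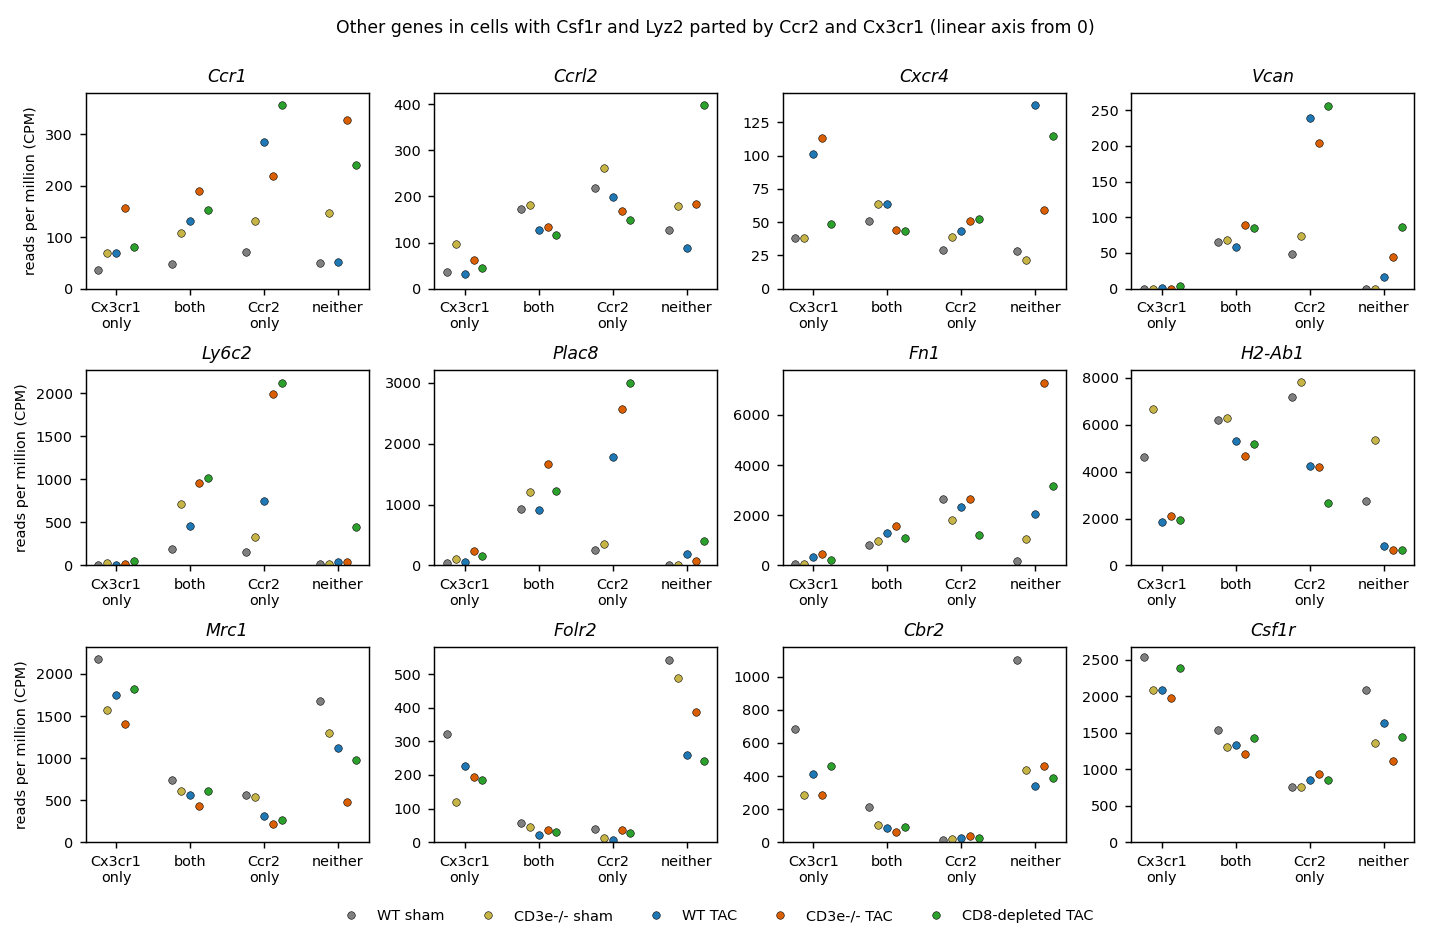
Levels (CPM, linear axis from 0) of 12 genes in cells with Csf1r and Lyz2 divided by reads of Ccr2 and Cx3cr1, with 1 point for each hashtag group. Folr2 and Cbr2 were higher in both combinations without Ccr2, and Mrc1 was higher with Cx3cr1 only than in both combinations with Ccr2. Plac8 reached 1785 to 2995 CPM in the Ccr2-only cells of the 3 TAC groups.

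Ccr1, a receptor for CCL3, CCL5 and related chemokines on monocytes and neutrophils, was highest in the Ly6c2 class, at 189, 148, 314, 319 and 371 CPM, except in both CD3e-/- groups. The Lyve1 class had 96.4, 164, 133, 358 and 126 CPM, above the Ly6c2 class in CD3e-/- sham and, from 15 cells, in CD3e-/- TAC. The Ace class had 41.5 and 40.4 CPM after sham and 130, 123 and 93.0 CPM after TAC, and cells without a subset gene 32.3, 103, 110, 170 and 126 CPM. Over all cells with Csf1r and Lyz2, Ccr1 was at 48.1, 105, 140, 204 and 175 CPM, and 10.2, 23.2, 29.7, 39.9 and 33.8% of cells were positive. WT sham was the lowest group and the TAC groups were the 3 highest. Ccr1 was found together with Ccr2 in the Ly6c2 class (246 of its 252 Ccr1-positive cells), where nearly every cell had Ccr2.

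The same cells were compared between groups as log2 ratios with 10 CPM added. Of the 9 receptors 4 reached 50 CPM in these cells, and the comparisons share control groups, so each is given on its own. From WT sham to WT TAC the ratio was 1.37 for Ccr1, 0.71 for Ccr2, 0.71 for Cxcr4 and -0.21 for Cx3cr1. Only Ccr1 was past 2 times, as were 2.71% of the 3992 genes counted, and its ratio was 1.51 in the cells without a subset gene, 1.44 in the Ace class, 0.70 in the Ly6c2 class and 0.43 in the Lyve1 class. From CD3e-/- sham to CD3e-/- TAC the ratios were 0.90, 0.31, 0.22 and -0.17 in the same order, none past 2 times against 3.48% of genes. Within classes, that Ccr1 ratio was 1.40 (Ace), 1.08 (Lyve1), 1.06 (Ly6c2) and 0.67 (no subset gene).

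Without surgery as the difference the ratios were mostly smaller. CD3e-/- sham stood at 0.98 (Ccr1), 0.31 (Ccr2), 0.21 (Cxcr4) and -0.31 (Cx3cr1) relative to WT sham, where 0.651% of genes were past 2 times. Within the Ly6c2 and Ace classes that Ccr1 ratio was -0.33 and -0.03, in the Lyve1 class 0.71, and in the cells without a subset gene 1.42. CD3e-/- TAC stood at 0.51, -0.09, -0.28 and -0.27 relative to WT TAC (0.651% of genes), and CD8-depleted TAC at 0.30, -0.04, -0.43 and 0.12 (0.326% of genes). No receptor passed 2 times in these 3 comparisons. For Ccr2 the ratio from sham to TAC within the Ly6c2 class was 0.21 in WT and 0.18 in CD3e-/- mice, in the Ace class 0.81 and 0.16, and in the cells without a subset gene 0.57 and 0.11. In the Lyve1 class it was -0.55 and -2.96, resting on the few positive cells given above. Summed markers of other cells were low but not at 0 in these cells, at 70.8, 163, 165, 153 and 280 CPM for 6 neutrophil genes, 53.6 to 128 CPM for type 2 innate lymphoid cells, 16.4 to 138 CPM for mast cells, 0.775 to 62.5 CPM for fibroblasts, 18.5 to 42.0 CPM for endothelial cells, 10.6 to 24.3 CPM for cardiomyocytes, 1.74 to 6.92 CPM for natural killer cells and 11.1 to 33.3 CPM for migratory dendritic cells, and their part in the ratios was not tested.

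Cxcr4 was highest in B cells, at 221, 218, 197, 237 and 116 CPM, and 185 of 394 Cd79a cells were positive. CD8-depleted TAC was the low value. Of the classes, Ace came next with 188, 114, 140, 69.1 and 69.2 CPM. It stood above the other 3 classes with Csf1r and Lyz2 in each of the 5 groups. The ungated cells were above it in CD3e-/- TAC (74.2 CPM) and CD8-depleted TAC (80.1 CPM). The Ly6c2 class (37.9 to 52.4 CPM) and cells without a subset gene (32.1 to 72.8 CPM) overlapped, and the Cd209a and Xcr1 classes had 11.5 to 24.0 CPM.

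The receptors of lymphoid homing marked the Cd79a class. Ccr7 was at 728, 664, 453, 358 and 484 CPM there, with 252 of 394 cells positive, higher in both sham groups than in the 3 TAC groups. Its reads in the classes with Csf1r and Lyz2 came to at most 5.77 CPM, and the Lyve1 and Ace classes had none. The Cd3g class had 80.9, 24.5 and 37.2 CPM in WT sham, WT TAC and CD8-depleted TAC. Cxcr5, the receptor for CXCL13, was at 222, 169, 148, 238 and 233 CPM in the Cd79a class (157 of 394 positive) and at most 8.15 CPM in any other class or in the ungated cells. Among the 394 B cells, 108 carried both Ccr7 and Cxcr5 and 125 carried both Ccr7 and Cxcr4, which 185 of them carried. Whether these genes went together beyond their single shares was not tested.

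Cxcr3, the receptor for CXCL9 and CXCL10, appeared in T cells and, at similar CPM, in the dendritic cells of the Xcr1 class. The Cd3g class had 104, 157 and 213 CPM in WT sham, WT TAC and CD8-depleted TAC. Of its 117 cells, which include the 3 of CD3e-/- sham, 47 were positive. The Xcr1 class had 117, 65.1, 169, 122 and 97.7 CPM with 71 of 154 cells positive. Of these, 68 had Ccr2 as well, which 143 of the 154 cells carried. Cxcr3 was at 0.217 to 2.16 CPM in the Cd209a class and at most 13.01 CPM in the classes with Csf1r and Lyz2. Cxcr6, whose ligand is CXCL16, was at 507, 220 and 252 CPM in the Cd3g class and in 56 of its 117 cells, of which 47 also had Ccr2 and 27 also had Cxcr3. Among cells with Csf1r and Lyz2, positive were 1 of 198 in the Lyve1 class, 2 of 441 in the Ly6c2 class, none of 251 in the Ace class and 1 of 2388 without a subset gene.

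The Xcr1 and Cd209a classes were tested against each other as above. Of 13126 genes, 3.59% were higher and 4.91% lower in the Xcr1 class, and of 6 receptors tested 1 was higher and 2 were lower. Cxcr3 was higher in 5 of 5 groups, with a log2 ratio of 6.22 (SE 0.43, edgeR adjusted p = 0.000463, alternatives 2.66e-58 to 0.00452). Ccr2 was lower in each group with a ratio of -0.71 (SE 0.09, edgeR adjusted p = 0.00323), and Ccr1 with -3.52 (SE 0.64, edgeR adjusted p = 0.0163). These 3 calls held in each of the 11 alternatives. Cx3cr1 missed the threshold (log2 ratio -2.31, SE 0.71, edgeR adjusted p = 0.0978, alternatives 0.0122 to 0.347), and in CD3e-/- TAC the Xcr1 class was the higher, at 159 against 134 CPM.

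Besides the classes above, the ungated cells also held receptor-positive cells. Cxcr2 was at 14.0, 68.3, 76.1, 102 and 240 CPM there, and 4.64, 4.55, 12.3, 9.64 and 17.2% of cells were positive. In every other class it was at most 32.5 CPM, and 25 of 394 B cells (6.35%) were positive. So were 102 of 2388 cells without a subset gene (4.27%), more cells than the 55 ungated ones. In each of the 5 groups the exact 95% interval of the ungated share overlapped that of the B cells, so the share alone was not separated from background at this depth. Of the 55 positive cells 28 had 3 or more of the neutrophil genes S100a8, S100a9, Csf3r, Retnlg and Mmp9, against 1 of 538 other ungated cells. Ccr7 marked 22 ungated cells, of which 17 had 3 or more of Fscn1, Ccl22, Cacnb3, Socs2 and Nudt17, genes of migratory dendritic cells, against 1 of 571.

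Cxcr6 in the ungated cells was at 102, 76.9, 4.53, 10.2 and 12.1 CPM, with 18.5, 14.5, 1.85, 3.61 and 4.60% of cells positive, and the interval of CD3e-/- sham (8.55 to 22.5%) lay above that of WT TAC but overlapped those of CD3e-/- TAC (0.752 to 10.2%) and CD8-depleted TAC (1.27 to 11.4%). Of the 54 positive cells 42 had 3 or more of 6 genes of type 2 innate lymphoid cells (Gata3, Il1rl1, Rora, Il7r, Calca and Il5), against 26 of 539. Calca and Il5 were seen in few of them (9 and 1 cells). T cell genes reached 3 or more of 7 in 25 of the 54 cells against 30 of 539, with Trbc1 in 45 and Cd3e in 1, and natural killer cell genes reached 3 of 6 in 6 of the 54. Cxcr3 marked 20 ungated cells, of which 12 had 3 or more of 6 natural killer cell genes, against 26 of 573, and 12 had 3 or more of 7 T cell genes, against 43 of 573. Of those T cell genes, Trbc1 and Trbc2 were each counted in 13 of the 20 cells and Lck in 11, but Cd3d and Cd3e in 0. Cxcr4 was found in 3.97, 6.36, 23.5, 27.7 and 31.0% of ungated cells, higher in the 3 TAC groups, and 30 of the 101 positive cells had 3 or more of 6 neutrophil genes, against 1 of 492. Mast cell genes reached 3 of 4 in none of the 101 and in 76 of the 492. These lists describe the positive cells, which were too few for a class of their own.

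**Figure D5:**
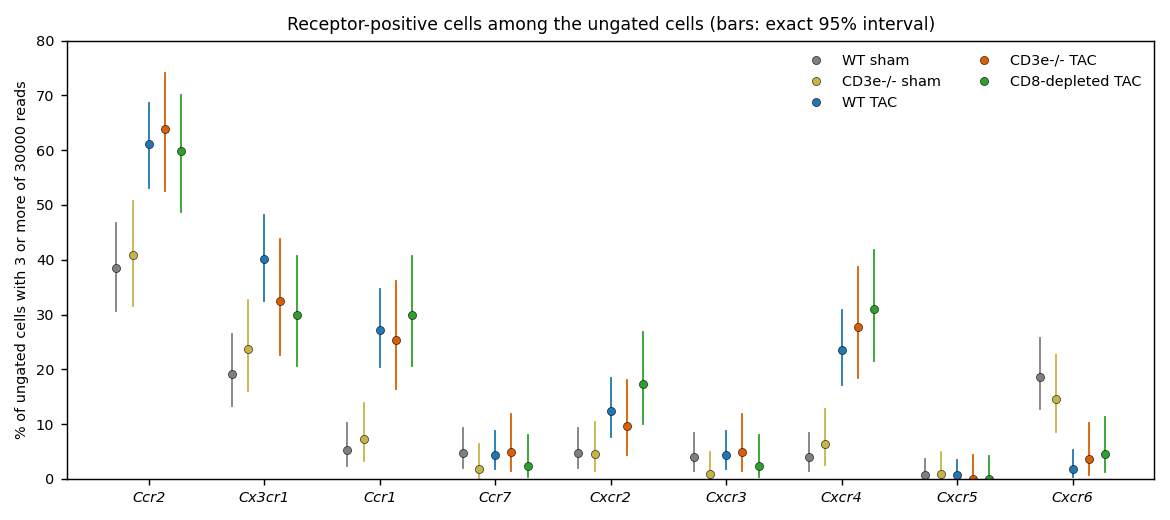
Percent of ungated cells with 3 or more of 30000 reads of each receptor, by hashtag group, with exact 95% binomial intervals that cover counting error only. Ccr1 (25.3 to 29.9% after TAC, 5.30 and 7.27% after sham) and Cxcr4 (23.5 to 31.0% after TAC, 3.97 and 6.36% after sham) were higher in the 3 TAC groups, and Cxcr6 (18.5 and 14.5% after sham) was higher in the 2 sham groups.

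Of 15 further receptor genes listed, 13 were in the table, and Ccrl2 was among those that reached 50 CPM in a class, as was the gating gene Xcr1. Ccrl2, an atypical receptor that does not signal through G proteins, was at 137 to 383 CPM in the Ly6c2 class and 8.92 to 44.3 CPM in the Lyve1 class, with a log2 ratio of 3.25 (SE 0.48, edgeR adjusted p = 0.00725, alternatives 2.29e-11 to 0.0556). It was lower in the Xcr1 class than in the Cd209a class, with a log2 ratio of -3.34 (SE 0.30, edgeR adjusted p = 0.000941). In the single cells Ccrl2 was at 32.8 to 97.5 CPM with Cx3cr1 only, 116 to 182 CPM with both receptors and 148 to 262 CPM with Ccr2 only.

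Ligands were read in the same cells. All 24 chemokine genes listed were in the table and 16 reached 50 CPM in a class, while Cx3cl1, the ligand of CX3CR1, did not. Ccl2, a ligand of CCR2, was at 450 to 1184 CPM in the Ly6c2 class, 230 to 1128 CPM in the Lyve1 class and 3.53 to 76.98 CPM in B cells, and Ccl7 was at 137 to 496 CPM in the Lyve1 class. Ccl12 was at 171 to 724 CPM in the Lyve1 class and 117 to 267 CPM in cells without a subset gene, and Ccl8 stayed at or under 160.2 CPM in every class. Of the ligands of CCR1 and related receptors, Ccl3 and Ccl4 were at 228 to 472 and 187 to 316 CPM in the Ly6c2 class, Ccl5 was at 487 to 1275 CPM in the Cd3g class, and Ccl6 and Ccl9 were at 540 to 2694 CPM in the 4 classes with Csf1r and Lyz2. Cxcl16, the ligand of CXCR6, was at 324 to 552 CPM in cells without a subset gene and 14.5 to 157 CPM in the Ace class. Cxcl10, a ligand of CXCR3, was at 184 to 919 CPM in the Ly6c2 class and Cxcl9 at up to 246 CPM in the Xcr1 class. Cxcl2, a ligand of CXCR2, was at 706 to 4484 CPM in the Ly6c2 class and Cxcl1 at up to 85.8 CPM in cells without a subset gene. Ccl22 was at 33.9 to 507 CPM in the ungated cells, and Cxcl13 was positive in 14 of 2388 cells without a subset gene.

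The genes whose levels followed each receptor most closely were named by Pearson's r of log2(CPM + 10) over 40 units, each a class in a group with 20 cells or more, among 7557 genes. For Ccr2 these were Lgals3 (0.89), Chmp4b (0.85), Fxyd5 (0.83), Trib1 (0.82) and Rnh1 (0.82). For Cx3cr1 those given here were Lamp1 (0.95), Cd300ld (0.94), Sirpa (0.93) and Ctsb (0.93). Ccr1 was followed by Slc15a3 (0.91), Atp6v0c (0.89) and Gm49339 (0.89), Cxcr4 by Gmip (0.86), Rasa3 (0.81) and Rasgrp2 (0.80), and Ccr7 by Cd55 (0.93), Trib2 (0.92) and Foxp4 (0.91). Cxcr5 was followed by Cacna1i, Ms4a1 and Fcmr, the last 2 of them B cell genes (0.99 or more each), Cxcr3 by Zdhhc2 (0.90), Anxa6 (0.86) and Tcf19 (0.85), Cxcr6 by Eya2 (0.97), Cd96 (0.97) and Bcl11b (0.97), and Cxcr2 by the neutrophil genes S100a9 (0.87) and S100a8 (0.87) and by Frzb (0.81). The units share the pooled library and the gates, so these values describe likeness only.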

How the data were processed

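CD45+ heart cells were sequenced by TAS-Seq on BD Rhapsody, with hashtags. Per the labels and the submitters' processing notes, the authors trimmed reads with cutadapt 2.10, mapped them with Bowtie2 2.4.2 to GRCm38 and deposited 1 table of read counts per gene and cell. Reads are not molecules, so intervals (95%, exact binomial) cover counting error only. The columns numbered 5363; 40 that the authors called doublets and 8 without a hashtag were left out, then cells under 500 genes or over a mitochondrial share of 0.4. Groups came from the deposited hashtag key. Thresholds in CPM were 500 (Cd79a, Ly6c2), 100 (Cd3g, Xcr1, Ace, Lyve1), 200 (Cd209a, Csf1r) and 1000 (Lyz2). Gates were read in the order Cd79a, Cd3g, Xcr1, Cd209a, Ace, Lyve1 and Ly6c2, and cells of 2 lineages were set aside. More than 1 of Ace, Lyve1 and Ly6c2 was met by 76 cells. For single-cell shares each cell was thinned to 30000 reads, leaving out 288 shallower cells.

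Class tests used edgeR 4.0.16 (TMM, filterByExpr, quasi-likelihood, Benjamini-Hochberg, 2-sided) in R 4.3.3, on summed counts with 10 cells or more a unit, with DESeq2 1.42.0 as an alternative. The p-values measure the spread between 5 single samples that differ in genotype and surgery. On simulated data, 41.4, 46.4 and 43.9% of genes changed by 2 on the log2 scale were recovered in the 3 tests in the order given, 1.01, 9.28 and 10.1% of those changed by 1, and at most 0.00907% of unchanged genes were called. Other steps used Python 3.11.15. Named genes were every member, listed receptors and ligands with 50 CPM in a class, and the 5 (Ccr2, Cx3cr1) or 3 most alike genes. Genes of the combinations and of the ungated cells were chosen for their known cell types. The members, lists and thresholds were chosen with earlier results of these data known. Alternatives were other thresholds, filters, scalings, CPM added, means of single-cell CPM and leaving out each group. Ackr2 and Cxcr1 were not analysed here. Some genes that this rule names are not reported here. Promoter windows are from RefSeq (GRCm38.p6), which matched 7 of the 9 receptors.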

Additional observations from a re-analysis of the deposited data

How the results depend on the processing

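No between-group difference has a replicate. The values are reads, not molecules, so intervals from read counts do not cover the error from the number of molecules captured. Of 750 values recomputed under alternatives 651 stayed on the same side and within the stated spread, 80 moved, 6 were weaker, 7 stronger and 6 reversed. All 45 receptor levels stayed the same, as did 217 of 240 ratios between groups and 105 of 120 shares of the receptor combinations.

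The difference in the share of cells with both Ccr2 and Cx3cr1 from WT sham to WT TAC was 24.7 percentage points and was 19.2 with 10 reads as the threshold. The count of receptors past 2 times from WT sham to WT TAC (1) was 0 with 50 CPM added and within the Lyve1 class. From CD3e-/- sham to CD3e-/- TAC (0) it was 1 with the mean of single-cell CPM and within the Ly6c2 and Ace classes and 2 within the Lyve1 class, and for CD3e-/- sham to WT sham (0) it was 1 with 1 CPM added, with TMM factors and within the Ly6c2 class and the cells without a subset gene. Within the Lyve1 class it was 2 for CD3e-/- TAC to WT TAC and 1 for CD8-depleted TAC to WT TAC (both 0 otherwise). The receptor was Ccr1 or Ccr2, except within the Ly6c2 class from WT sham to either other group, where it was Cxcr6 from few cells.

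Genes called higher and lower were 566 and 616 (Ly6c2 against Lyve1), 109 and 35 (Ace against Ly6c2) and 471 and 645 (Xcr1 against Cd209a). DESeq2 called 1222 and 1600, 436 and 352, and 1034 and 1466. Leaving out each group in turn gave 244 to 568 and 247 to 533, 17 to 101 and 4 to 59, and 263 to 404 and 373 to 534, lowest without CD8-depleted TAC in the first test and without WT TAC in the others. Counts moved by over 1.5 times without CD8-depleted TAC, WT sham or WT TAC in the first, without each group in the second, and without WT sham, CD3e-/- sham or WT TAC in the third. Genes lower in the Ace class numbered 65 with no filter, 19 with thresholds halved and 82 with thresholds doubled. Cxcr2 reversed around 0 in Ace against Ly6c2 (0.01): -0.02 with no filter, -0.04 with no block, -0.18 without cells meeting 2 thresholds, and -0.11 to 0.11 leaving out each group (-0.03 without CD3e-/- sham). In Xcr1 against Cd209a (-0.18) it was -0.61 to 0.05, highest without WT sham. Cx3cr1 in Ace against Ly6c2 passed with DESeq2 and with thresholds doubled, and Cxcr4 also with no block. The causes were not tested.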
